A study of Homo sapiens with 9 samples.

Results

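The 3 RNA-seq libraries of SNU449 cells, out of 9 libraries in the series, were compared with each other over all genes. They were taken by cell line as the labels give it. SNU449 is a human liver cancer line. The cells were labelled control or were given THZ531 at 250 nM or at 500 nM for 48 h, with 1 library per dose. The other 6 libraries came from the liver cancer lines Hep3B and Huh7 at the same doses, and their treatment lasted 24 h by the protocol and 48 h by the sample labels, so line and hours cannot be told apart in any comparison between lines. All libraries were made from polyadenylated RNA of cells grown in DMEM with 10% FBS, and no label says whether the control received the solvent.

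THZ531 binds CDK12 and CDK13 covalently and blocks them. Both kinases work with cyclin K and phosphorylate the tail of RNA polymerase II while it transcribes. Their loss of activity is known to shorten or lower transcripts, with long genes and genes of DNA repair by homologous recombination often named among those affected. The question here was how far SNU449 RNA moved at each dose, and which genes did not move.

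The SNU449 libraries held 14023600 counts in the control, 12875070 at 250 nM and 15553604 at 500 nM. Of 32990 genes in the table, 11192 had a mean of at least 50 counts over these 3 libraries and were used, 10708 of them protein-coding. Ratios to control were taken from CPM (counts scaled to library size, with TMM factors) with a prior count of 2, each with a 95% exact interval of the ratio that covers counting error only. A gene was called where its ratio passed 1.5-fold and its interval excluded 1. With 1 library per dose, these calls describe the libraries and have no replicate check. Hepatocyte markers were near absent in SNU449 and mesenchymal markers abundant. The 8 hepatocyte markers summed to 5.35, 4.72 and 5.02 CPM in control, 250 and 500 nM, against 22103 CPM in the Hep3B control and 16681 CPM in the Huh7 control. The 8 mesenchymal markers summed to 9147, 8461 and 7963 CPM, against 2732 CPM in the Hep3B control and 7102 CPM in the Huh7 control. They were thus abundant in Huh7 as well, and VIM alone held 7574 CPM of the sum in the SNU449 control. The 7 epithelial markers summed to 528, 570 and 626 CPM, against 2878 CPM in the Hep3B control and 4015 CPM in the Huh7 control. In bulk RNA, fewer cells of a kind and less RNA per cell cannot be told apart. The 6 fibroblast markers summed to 1424, 1340 and 1173 CPM with DCN at 0, and the immune and endothelial markers stayed between 0.50 and 2.17 CPM with KDR at 0.

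Most SNU449 genes moved little. The median absolute log2 ratio was 0.09 at 250 nM and 0.12 at 500 nM, where 5% of genes lay below -0.41 and 5% above 0.29. At 250 nM, 81 genes (0.724% of those tested) were called, 41 (0.366%) higher and 40 (0.357%) lower. At 500 nM, 276 genes (2.47%) were called, 63 (0.563%) higher and 213 (1.9%) lower. Only 25 genes passed 2-fold at 500 nM. Counting error alone set a median interval half-width of 0.18 on the log2 scale at 250 nM and 0.17 at 500 nM, so shifts smaller than this were not resolved in a typical gene. Across genes, log2 CPM of the control correlated with Pearson's r = 0.996 at 250 nM and 0.992 at 500 nM.

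A shift was taken to grow with dose where the gene was called at 500 nM, lay on the same side of control at 250 nM, and was farther from control at 500 nM. There were 254 such genes (2.27%), of which 54 (0.482%) were higher and 200 (1.79%) lower. For 141 of them (1.26% of genes tested), 26 higher (0.232%) and 115 lower (1.03%), the interval of the 500 over 250 nM ratio also excluded 1. Another 22 genes were called at 500 nM without this order. At any size of shift, 5088 genes (45.5% of those tested) had this order. Both ratios use the same control library, so an error in the control moves them to the same side. The call at 500 nM also favours genes that lie farther out at that dose, so the order is no independent check. At the edge of the threshold, ZBED6CL lay just inside with a log2 ratio of 0.60 and APOL6 just outside with 0.57. Among lower genes, SSH3 lay just inside with -0.59 and ARHGAP5-AS1 just outside with -0.58.

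**Figure D1:**
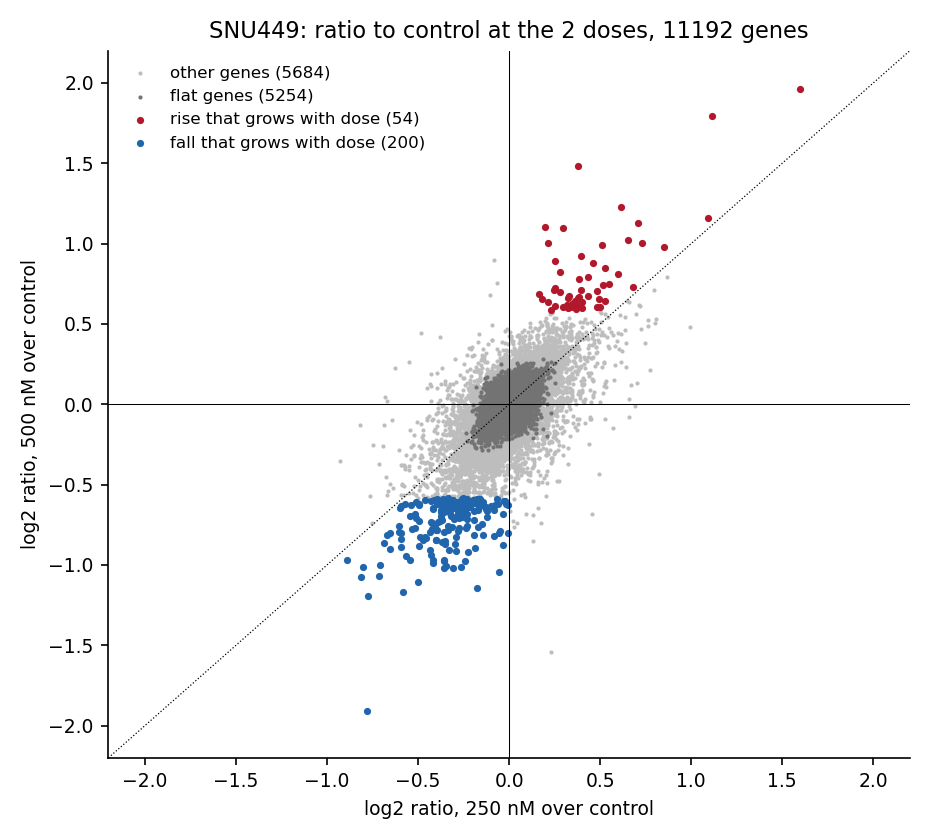
Log2 ratio to control at 250 nM (x axis) and 500 nM (y axis) for the 11192 SNU449 genes tested, 1 point per gene. Red and blue points are the 54 higher and 200 lower genes whose shift grew with dose, dark grey points the 5254 flat genes, and the dotted line marks equal ratios at both doses.

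The genes that grew with dose were of low abundance. Their median mean count was 87.5 for the higher and 135 for the lower genes, against 529 for all genes tested. With a minimum of 200 counts, 88 genes remained in this class out of 8706 tested, 16 higher and 72 lower. The lower genes were also shorter and richer in G and C. Their median GC content was 54.5%, against 47.8% in the higher genes and 47.5% in all genes, and their median span on the genome was 13628 bases against 33515 bases. After the trends of the ratio with GC content and exonic length were subtracted, an alternative added after the data had been seen, 225 genes grew with dose, 52 higher and 173 lower, and 206 of them were shared with the 254.

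A dose trend was also fitted to the counts of the 3 libraries in edgeR, with dose as a number and fold changes given for 500 nM. The trend called 971 genes (8.68% of 11192), with 370 (3.31%) that rose and 601 (5.37%) that fell, and 2487 genes had an unadjusted p under 0.05. The fitted changes were small, with a median absolute log2 value of 0.38 among called genes. In 358 of them the log2 change was under 0.32 and in 207 it was at least 1.5-fold. Of the 254 genes that grew with dose by size, 195 passed the trend. The fit has 1 residual degree of freedom and its spread is the departure from a straight line, without the spread between cultures. DESeq2 called 80 genes on the same libraries, and a fit that took both doses as one treated group called 211. Of 94 named genes past the trend, 68 were lost with DESeq2 and 52 with both doses as treated. Losses under 3 or more of the alternatives are given beside those of the 94 genes described below as having risen or fallen. A gene without such a note may still have been lost under fewer. Rises lost with DESeq2 and also with both doses as treated included SERPINB8, PPP1R15A, HMOX1, LOX, KLF10, CTGF, FLNA, BIRC2, ICAM1, KRT8 and KRT18. Falls lost under the same alternatives included KIF12, ABCC3, COL1A1, TGFBI, HMGCS1, ELOVL6, FADS2, NDUFB1, PDK1 and BNIP3. Counts of a gene group are to be read against the 3.31% of all genes that rose, the 5.37% that fell and the 46.9% that were flat, as defined further below.

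Among the genes that rose, SLC7A11 encodes the transport subunit of the cystine and glutamate antiporter. Its counts were 866, 1098 and 1768 in control, 250 and 500 nM. The log2 ratio was 0.46 at 250 nM and 0.88 at 500 nM (counting interval 0.76 to 1.0), and the libraries stood in the order of dose (edgeR trend 0.88 ± 0.08 SE, adjusted p = 1.26e-21). GPR56, an adhesion G protein-coupled receptor, had 951, 1264 and 1903 counts and log2 ratios of 0.53 and 0.85. PODXL, the cell surface sialomucin podocalyxin, had 1211, 1507 and 2322 counts and log2 ratios of 0.43 and 0.79. Both passed the trend under every alternative run. VARS2, the mitochondrial valyl-tRNA synthetase, had 572, 772 and 1065 counts and log2 ratios of 0.55 and 0.75. GDF15, a stress-induced cytokine of the TGF-beta family, had 679, 876 and 1230 counts and log2 ratios of 0.48 and 0.71. Each of these genes was already higher at 250 nM by more than its counting error.

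Among genes with a mean of at least 100 counts, the largest rise that grew with dose was that of LAMB3, a chain of the basement membrane protein laminin-332. LAMB3 had 147, 167 and 351 counts and log2 ratios of 0.30 and 1.1 (interval 0.82 to 1.39 at 500 nM). Most of its shift came between the 2 doses, and DESeq2 gave it an adjusted p = 0.0618 against 1.13e-10 in edgeR. ATF5, a transcription factor of the stress response, had 364, 453 and 644 counts with log2 ratios of 0.43 and 0.67. SERPINB8, a serine protease inhibitor, had 111, 115 and 199 counts with 0.17 and 0.68, and the uncharacterised C17orf51 had 170, 207 and 310 counts with 0.40 and 0.71. On GRCh38, SLC7A11 (ENSG00000151012) lies on chromosome 4 from 138164097 to 138242349, PODXL (ENSG00000128567) on chromosome 7 from 131500262 to 131558217, and LAMB3 (ENSG00000196878) on chromosome 1 from 209614870 to 209652466.

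Abundant genes that rose included AXL, a receptor tyrosine kinase, and MT-RNR2, the large ribosomal RNA of mitochondria. AXL had 7072, 7474 and 11217 counts, with log2 ratios of 0.20 and 0.52, below the 1.5-fold threshold but past the trend under every alternative (edgeR trend 0.52 ± 0.07 SE, adjusted p = 8.37e-12). MT-RNR2 had 50240, 55104 and 85287 counts and log2 ratios of 0.25 and 0.61. The share of counts from both mitochondrial ribosomal RNAs was 0.425%, 0.502% and 0.634% (95% exact interval 0.630 to 0.638 at 500 nM), while the mitochondrial mRNAs stayed at 3.89%, 3.84% and 3.83%.

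Among the genes that fell, MMP1, the interstitial collagenase that cuts fibrillar collagen, had the largest fitted change among the 10 genes with the smallest p in the trend. Its counts were 3299, 1743 and 1809, and its log2 ratio was -0.80 at 250 nM and -1.02 at 500 nM (interval -1.1 to -0.93). Most of the fall was thus present at the lower dose. DESeq2 gave it an adjusted p = 0.162, against 1.99e-26 in edgeR. DKK1, a secreted inhibitor of Wnt signalling, had 4088, 2716 and 2521 counts and log2 ratios of -0.47 and -0.85 (edgeR trend -0.85 ± 0.07 SE, adjusted p = 4.27e-28). PPDPF, named for pancreatic progenitor differentiation and proliferation, had 1831, 1381 and 1078 counts with -0.29 and -0.91. OLFML3, a secreted olfactomedin-domain protein, had 2448, 1742 and 1679 counts with -0.37 and -0.69, and the junction protein plakoglobin, JUP, had 3034, 2371 and 2154 counts with -0.24 and -0.64. DKK1, PPDPF, OLFML3 and JUP passed the trend under every alternative run. MMP1 (ENSG00000196611) lies on chromosome 11 from 102789920 to 102798160 and DKK1 (ENSG00000107984) on chromosome 10 from 52314296 to 52318042.

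The other named falls were in genes with fewer counts. PPP2R3A, a regulatory subunit of protein phosphatase PP2A, had 191, 117 and 93 counts with log2 ratios of -0.58 and -1.17 (interval -1.56 to -0.82 at 500 nM). KIF12, a kinesin, had 134, 109 and 66 counts with -0.18 and -1.14, and SOD3, the extracellular superoxide dismutase, had 142, 92 and 72 counts with -0.50 and -1.11. CRYM, which binds thyroid hormone, had 344, 180 and 180 counts with -0.81 and -1.07. KRT15, a keratin, had 344, 193 and 190 counts with -0.71 and -1.0. As with MMP1, most of the shift of CRYM and KRT15 was present at 250 nM. TMEM141 had 167, 93 and 87 counts with -0.72 and -1.07, and HLA-DMB, which helps load peptides on MHC class II, had 194, 144 and 105 counts with -0.31 and -1.02. OLFML2A, a further olfactomedin-domain gene, had 509, 351 and 283 counts with -0.42 and -0.99. PRODH, proline dehydrogenase, is listed in the table in near-identical copies, so its reads may be split between them. The copy on scaffold KI270734.1 had 205, 148 and 112 counts and a log2 ratio of -1.01 at 500 nM.

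**Figure D2:**
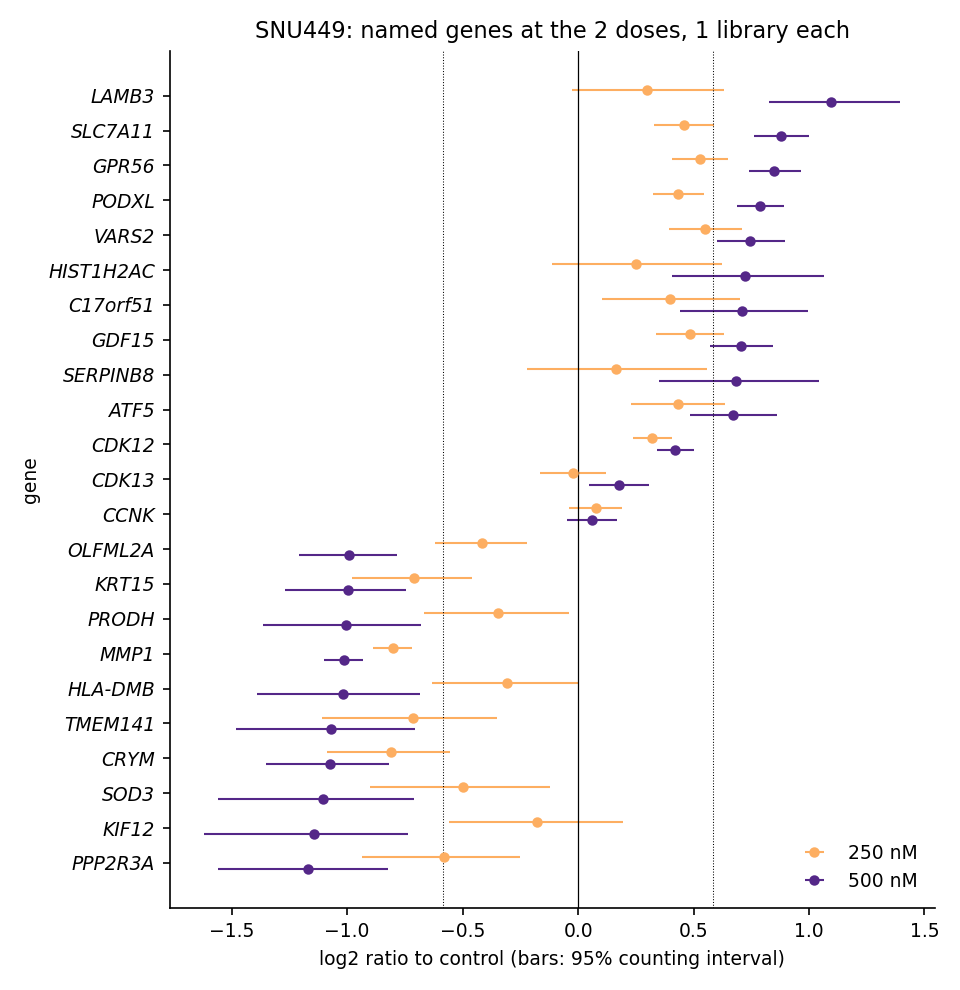
Log2 ratio to control at 250 nM (orange) and 500 nM (purple) in SNU449 for the 10 largest rises and 10 largest falls that grew with dose and for CDK12, CDK13 and CCNK, with bars for the 95% counting interval and dotted lines at 1.5-fold. LAMB3 lies highest at 1.1 and PPP2R3A lowest at -1.17, and the 3 targets lie inside the dotted lines.

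Of the 81 genes called at 250 nM, 35 were also called at 500 nM and 53 lay closer to control at 500 nM. UCN2, a urocortin peptide, had 48, 90 and 75 counts, with log2 ratios of 1.0 at 250 nM and 0.48 at 500 nM. HEY1, a transcription factor of the Notch pathway, had 50, 82 and 81 counts with 0.81 and 0.53. GAL3ST1, a sulfotransferase, had 0.80 and 0.51, MAMDC4 had 0.80 and 0.71, and AP000892.6 had 0.87 and 0.79. Genes lower at 250 nM included SRRM3, a splicing-related gene, with 72, 34 and 62 counts and log2 ratios of -0.93 and -0.35. AKR1E2, an aldo-keto reductase, had 80, 41 and 81 counts with -0.82 and -0.13, and NMB, the peptide neuromedin B, had 65, 35 and 60 counts with -0.75 and -0.26. PRSS35 had -0.77 and -0.57, and CTD-2201E18.3 had -0.76 and -0.74. These genes had at most 146 counts in any SNU449 library, and 7 genes were called at 250 nM with a minimum of 200 counts.

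Of the targets of the compound, CDK12 rose and the other genes did not pass the trend. CDK12 had 2127, 2448 and 3157 counts and log2 ratios of 0.32 and 0.42 (interval 0.34 to 0.50 at 500 nM). It rose in the dose trend (0.42 ± 0.07 SE, edgeR adjusted p = 1.77e-06, DESeq2 adjusted p = 0.0444). CDK13 had 860, 781 and 1079 counts and log2 ratios of -0.02 and 0.18 (edgeR adjusted p = 0.205), and CCNK, which encodes cyclin K, had 1292, 1255 and 1495 counts with 0.08 and 0.06 (edgeR adjusted p = 0.732). At 500 nM CDK12 had a log2 ratio of -0.45 in Hep3B and of -0.37 in Huh7, and the test of the difference between SNU449 and their mean gave 0.76 ± 0.41 SE with an edgeR adjusted p = 0.329. Of the 15 genes tested among transcriptional kinases and their partners, 10 were flat and 1 rose. That gene was HEXIM1, an inhibitor of P-TEFb, with 3860, 4182 and 4973 counts and log2 ratios of 0.23 and 0.22, and its call was lost under 6 of the 9 alternatives.

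Histone genes stood among the highest ratios. Replication-dependent histone transcripts normally end in a stem-loop without a poly(A) tail, and some histone genes also give polyadenylated RNA. Of 10 histone genes tested, with replication-independent variants such as H2AFJ included, 5 were higher with a shift that grew with dose (0.482% of all genes). The median log2 ratio of the 10 was 0.14 at 250 nM and 0.36 at 500 nM, against -0.00 and 0.00 over all genes. The group median was 0.70 with a minimum of 10 counts and -0.06 with a minimum of 200, so its value rests on genes of low count. HIST2H2BE, an H2B gene, had 23, 48 and 94 counts and log2 ratios of 1.11 and 1.80 (interval 1.21 to 2.61 at 500 nM). HIST1H2BK, also an H2B gene, had 49, 52 and 119 counts with 0.20 and 1.1, and HIST1H2AC, an H2A gene, had 121, 133 and 223 counts with 0.25 and 0.72. These 3 genes rose in the edgeR trend and were not called by DESeq2. HIST1H1C, a linker histone, had 56, 63 and 102 counts with 0.28 and 0.70, and HIST1H2BD had 75, 92 and 127 counts with 0.40 and 0.60. Neither HIST1H1C (edgeR adjusted p = 0.0617) nor HIST1H2BD passed the trend. The replication-independent variant H2AFJ fell, with 442, 278 and 333 counts and log2 ratios of -0.55 and -0.55. H2AFX, H1F0, H3F3B and H2AFZ were flat.

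The promoters of the 5 higher histone genes are shown because each had a rise that grew with dose. That of the asparagine synthetase gene ASNS is shown because it carries a textbook stress response element. Promoters of 9082 of the 11192 tested genes were matched in RefSeq (GRCh38.p14), each from 250 bases before to 50 after the start, and the 140 bases before the start are printed 5′ to 3′ on the gene's strand. Capitals mark the octamer ATTTGCAT on either strand in histone genes, and the letters TGATGNAA in ASNS.
HIST2H2BE: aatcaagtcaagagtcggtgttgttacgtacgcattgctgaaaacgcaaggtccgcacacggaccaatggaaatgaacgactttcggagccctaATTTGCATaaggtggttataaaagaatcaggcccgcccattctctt
HIST1H2BK: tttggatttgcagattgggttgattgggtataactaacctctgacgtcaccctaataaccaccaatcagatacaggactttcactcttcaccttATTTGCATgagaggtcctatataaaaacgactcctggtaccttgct
HIST1H2AC: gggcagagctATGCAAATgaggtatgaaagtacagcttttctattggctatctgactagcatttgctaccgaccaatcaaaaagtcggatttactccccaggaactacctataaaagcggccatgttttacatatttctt
HIST1H2BD: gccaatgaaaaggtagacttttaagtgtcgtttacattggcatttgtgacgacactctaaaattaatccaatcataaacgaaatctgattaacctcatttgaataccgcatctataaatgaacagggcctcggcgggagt
HIST1H1C: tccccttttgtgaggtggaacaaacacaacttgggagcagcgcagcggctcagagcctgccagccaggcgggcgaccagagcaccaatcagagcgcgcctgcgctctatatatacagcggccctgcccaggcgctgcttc
ASNS: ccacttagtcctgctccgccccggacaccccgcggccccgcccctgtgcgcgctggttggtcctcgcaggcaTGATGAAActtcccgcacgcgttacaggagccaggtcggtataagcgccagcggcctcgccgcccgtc
The printed stretches lie at chr1:149886683-149886822 on the minus strand for HIST2H2BE, chr6:27146859-27146998 on the minus strand for HIST1H2BK, chr6:26124032-26124171 on the plus strand for HIST1H2AC, chr6:26157981-26158120 on the plus strand for HIST1H2BD, chr6:26056471-26056610 on the minus strand for HIST1H1C and chr7:97872409-97872548 on the minus strand for ASNS. The octamer began 46 bases before the start in both HIST2H2BE and HIST1H2BK and lay on the other strand 130 bases before the start in HIST1H2AC. In the whole windows it was found in 4 of 9 histone genes matched, in 4 of 29 genes whose rise grew with dose, 3 of which are the histone genes just shown, in 3 of 145 whose fall grew with dose, in 1.16% of tested genes and in 1.77% of all RefSeq promoters. The letters CCAAT were found on either strand in all 9 histone genes matched and in 37.3% of tested genes, and TATAAA in 7 of the 9 and in 5.03% of tested genes. These matches describe the sequence only.

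Genes of the integrated stress and unfolded protein responses moved both ways. Of 20 tested, 6 rose and 2 fell in the dose trend, against 3.31% and 5.37% of all genes, 10 were flat, against 46.9%, and the median log2 ratio at 500 nM was 0.07. Those that rose were ASNS, the serine pathway enzymes PHGDH, PSAT1 and SHMT2, the pseudokinase TRIB3, and PPP1R15A, which helps restore translation. ASNS had 632, 738 and 962 counts and log2 ratios of 0.34 and 0.46, and SHMT2, the mitochondrial serine hydroxymethyltransferase, had 4415, 4719 and 6276 counts with 0.21 and 0.36. SHMT2 passed under every alternative run, while ASNS was lost with DESeq2 (adjusted p = 0.417). The 2 that fell were HSP90B1 and PDIA4, chaperones of the endoplasmic reticulum, at -0.22 and -0.21. HSPA5, the main chaperone of that compartment, lay at -0.16 and ATF4, the transcription factor of the stress response, at 0.06, and neither passed the trend. The letters TGATGNAA were found in promoters of 3 of 19 of these genes matched and in 1.56% of tested genes.

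Targets of NRF2, the factor of the antioxidant response, included genes that rose and genes that fell. Of 20 tested, 6 rose (3.31% of all genes), 3 fell (5.37%) and 9 were flat (46.9%), with a median log2 ratio of 0.05 at 500 nM. Besides SLC7A11, NQO1, a quinone reductase, rose from 6483 counts in control and 6479 at 250 nM to 9636 at 500 nM, with log2 ratios of 0.12 and 0.42. HMOX1, heme oxygenase 1, had 284, 306 and 434 counts with 0.22 and 0.46, and the glutathione synthesis subunit GCLM had 955, 917 and 1279 counts with 0.06 and 0.27. The genes that fell were the transporter ABCC3, with 1728, 1495 and 1394 counts and log2 ratios of -0.09 and -0.46, and the aldo-keto reductases AKR1C2 and AKR1C1, at -0.43 and -0.42 at 500 nM. The letters TGACNNNGC of the antioxidant element were found in promoters of 4 of 15 of these genes matched (26.7%) and in 15.2% of tested genes.

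Mesenchymal and matrix genes also moved both ways. Among 22 TGF-beta targets and mesenchymal genes tested, 6 rose and 4 fell, beside 3.31% and 5.37% of all genes. THBS1, a thrombospondin of the matrix, rose with 5354, 5409 and 7718 counts and log2 ratios of 0.13 and 0.38. LOX, a collagen crosslinking enzyme, lay at 0.40 and the actin-binding TAGLN at 0.34 at 500 nM. Those that fell were COL1A1, VIM, TPM1 and TGFBI, from -0.29 to -0.25. VIM, vimentin, had 106085, 88269 and 96387 counts and log2 ratios of -0.15 and -0.29, a change inside the band used here for flat genes yet past the trend. Of 11 YAP and TEAD targets, 4 rose and 1 fell, read against the same shares, with AJUBA at 0.46 and AXL at 0.52 the highest. Among 18 matrix and protease genes, 2 rose and 4 fell, again beside 3.31% and 5.37%. COL7A1, the anchoring fibril collagen, had 1881, 2845 and 3197 counts and log2 ratios of 0.71 and 0.62, so it was called at both doses without growing with dose. TNC, the matrix protein tenascin C, had 229, 221 and 171 counts with 0.07 and -0.56, and its call was lost under 3 of the 9 alternatives.

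Immediate early genes, a group that responds within minutes to many stimuli, had small ratios in SNU449. Of 19 tested, 4 rose (3.31% of all genes), 1 fell (5.37%) and 7 were flat (46.9%), with a median log2 ratio of 0.06 at 500 nM against 2.62 in Hep3B and 3.05 in Huh7. The AP-1 member JUND fell, with 539, 398 and 394 counts and log2 ratios of -0.32 and -0.60. FOSL1 lay at 0.28, DUSP5 at 0.28, KLF10 at 0.33 and CTGF at 0.27, and these 4 rose, though the DUSP5 call was lost under 6 of the 9 alternatives. JUN had 2425, 2273 and 2539 counts with 0.02 and -0.08, and MYC had 2850, 2604 and 2902 counts with -0.01 and -0.12. The response of SNU449 differed from the mean of the other lines in 12 of 27 of these genes in the fit over all lines described below, which called 2.8% of all genes.

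Genes of homologous recombination and the Fanconi anaemia pathway had no member past 1.5-fold at 500 nM. Of 31 listed, 30 were tested, none was called at 500 nM (2.47% of all genes), 13 were flat (46.9%) and 2 rose in the trend (3.31%), with a median log2 ratio of 0.03. BRCA1 had 1390, 1204 and 1431 counts and log2 ratios of -0.09 and -0.11, and BRCA2 had 479, 476 and 515 counts with 0.11 and -0.04. FANCA rose, with 921, 1015 and 1263 counts and log2 ratios of 0.26 and 0.31, a call lost under 3 of the 9 alternatives, and RBBP8, the end resection factor CtIP, rose by 0.26, close to the threshold (edgeR adjusted p = 0.0497). RAD54B was lowest, with 196, 149 and 170 counts and log2 ratios of -0.28 and -0.35 (edgeR adjusted p = 0.196). In Hep3B and Huh7 the group medians were -0.38 and -0.76. None of the 19 checkpoint genes passed the trend by edgeR, and 10 of them were flat. The lowest adjusted p among them was that of WEE1, the kinase that holds back mitosis, with 1100, 939 and 1055 counts, a log2 ratio of -0.21 and an adjusted p = 0.115.

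Cell cycle genes were mostly flat. Of 30 replication genes 24 were flat, and of 23 mitotic genes 20. GINS4, a subunit of the replicative helicase, fell with 2827, 2181 and 2200 counts and log2 ratios of -0.26 and -0.51. Among mitotic genes, MKI67, the proliferation marker Ki-67, rose with 7530, 8036 and 10833 counts and log2 ratios of 0.21 and 0.38. TPX2, a spindle assembly factor, lay at 0.20 and rose, a call lost under 6 of the 9 alternatives. GINS4 and MKI67 passed under every alternative run.

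Ribosomal protein genes lay slightly below control as a group. All 75 were tested, 72 had a log2 ratio below 0 at 500 nM against 49.8% of all genes, and the median was -0.10 at 250 nM and -0.14 at 500 nM. No member was called at 1.5-fold, 63 were flat, and 19 fell in the trend. RPS28 had 2445, 1969 and 1983 counts and log2 ratios of -0.19 and -0.45, RPS27 had 4577, 3575 and 3789 counts with -0.24 and -0.42, and RPL13 had 9929, 8387 and 8279 counts with -0.13 and -0.41. Their summed share of all counts was 3.67%, 3.44% and 3.30%. The snoRNA host genes and nuclear lncRNAs lay low as well. Of 13 tested, 12 had a log2 ratio below 0 at 500 nM, with a median of -0.19, though only SNHG16 passed the trend, with 3421, 2725 and 2693 counts and -0.21 and -0.49.

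Lipid synthesis genes lay slightly lower. Of 20 cholesterol genes, 18 were below 0 at 500 nM (49.8% of all genes), 4 fell (5.37%) and 13 were flat (46.9%). Their median was -0.09. Among those that fell were MSMO1 at -0.36, HMGCS1 at -0.35 and MVD at -0.26, enzymes of the pathway, and the calls of MSMO1 and MVD were lost under 3 and 4 of the 9 alternatives. Of 10 fatty acid genes, 9 were below 0 and 3 fell, beside the same shares of all genes. SCD, the stearoyl-CoA desaturase, had 43944, 34754 and 38662 counts with log2 ratios of -0.22 and -0.33, and ELOVL6 and FADS2 lay at -0.35 and -0.26.

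**Figure D3:**
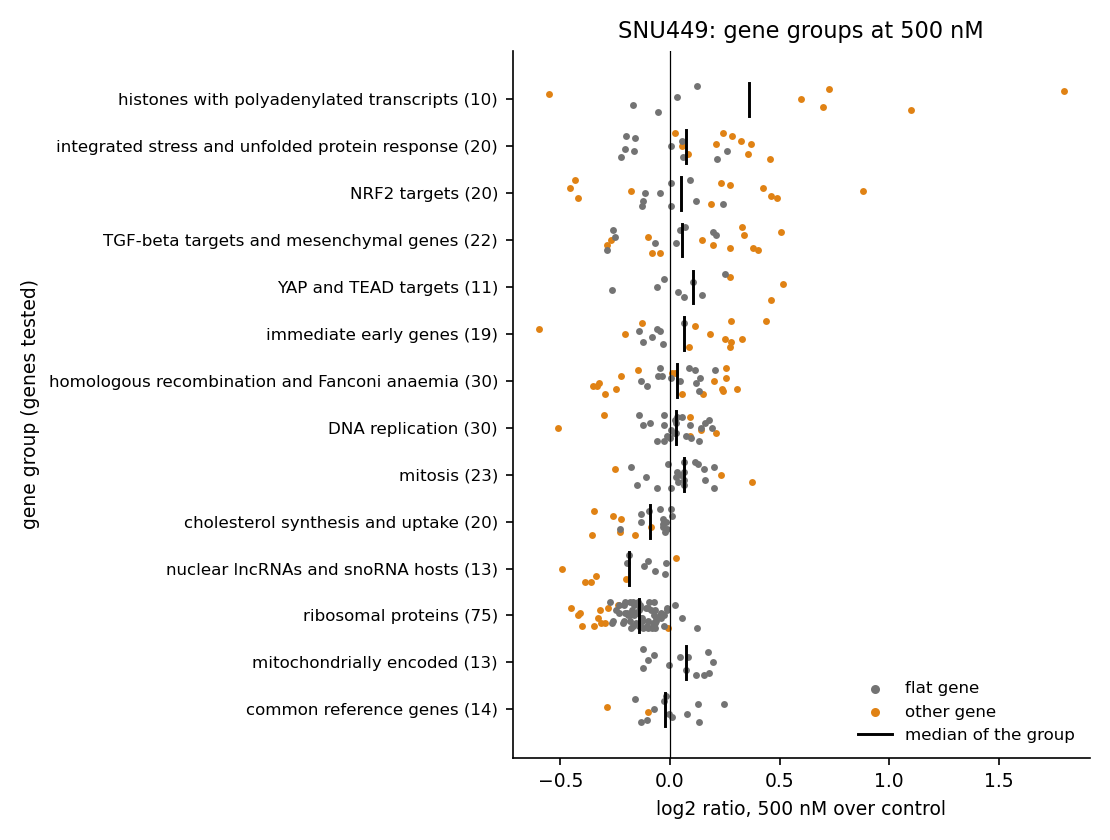
Log2 ratio at 500 nM over control in SNU449 for the tested members of 14 gene groups, 1 point per gene, with flat genes in grey, other genes in orange and a black line at the group's median. The histone median is 0.36 and that of ribosomal proteins -0.14, and most groups centre on 0.

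A gene was called flat where both counting intervals lay within 0.32 of control on the log2 scale, a statement about size only. Of 11192 genes, 5254 (46.9%) were flat, and of the 9056 genes whose intervals were narrow enough to pass, 58.0% were. Over all genes, 50.2% lay above control at 500 nM. Among the flat genes 106 still passed the dose trend. In the same classification 3.78% of genes were flat in Hep3B and 1.62% in Huh7. The flat protein-coding genes with the highest counts in SNU449 were MT-ND4, MT-CO1, ACTB, VIM, FLNA, MT-CO3, ITGB1, MT-CO2, EEF1A1 and GAPDH. ACTB, cytoplasmic actin, had 99682, 90280 and 100910 counts and log2 ratios of -0.03 and -0.13, and GAPDH, the glycolytic enzyme, had 51920, 48766 and 60656 counts with 0.03 and 0.08. FLNA, filamin A, rose within the band, with log2 ratios of 0.21 and 0.25. All 13 mitochondrially encoded mRNAs were flat, as were 21 of 23 splicing factors, 15 of 18 cleavage and polyadenylation factors, 12 of 14 common reference genes and 20 of 27 nuclear genes of oxidative phosphorylation. Of those 27, NDUFB1, a subunit of respiratory complex I, fell with 317, 251 and 225 counts and log2 ratios of -0.22 and -0.64.

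In the remaining groups single members passed the trend, with ratios under 1.5-fold. Of 23 p53 targets 1 fell (5.37% of all genes), none rose (3.31%) and 6 were flat (46.9%). The one that fell was TP53INP1 at -0.43, and its call was lost under 5 of the 9 alternatives. Of 16 apoptosis regulators 3 rose, the inhibitors BCL2, BIRC3 and BIRC2 at 0.46, 0.45 and 0.36, and the BH3-only gene BMF fell at -0.41. The BCL2 call was lost under each of the 8 alternatives run for it and that of BIRC3 under 3 of 9. Among 10 NF-kB targets 2 rose, with ICAM1, an adhesion molecule, at 627, 642 and 932 counts and a log2 ratio of 0.42. None of the 10 interferon genes passed. Of 12 heat shock genes HSPA1A rose by 0.31 and HSPB1 fell by 0.23, calls lost under 3 and 6 of the 9 alternatives. Of 16 hypoxia and glycolysis genes PDK1 and BNIP3 fell, at -0.48 and -0.32. Of 3 metallothioneins, which bind copper and zinc, the more abundant MT2A and MT1E were flat at -0.02 and -0.09. MT1X had 121, 89 and 87 counts and a log2 ratio of -0.61 and did not pass the trend (edgeR adjusted p = 0.0612). Of 5 epithelial genes KRT8 and KRT18, the keratins of simple epithelia, rose by 0.26 and 0.24. Of 16 receptor tyrosine kinase genes 3 rose, EGFR at 0.25, EPHB2 at 0.35 and AXL. Of 6 xenobiotic genes 2 rose, NQO1 and the amino acid transporter SLC7A5, and the aryl hydrocarbon receptor AHR fell by 0.27. The AHR call was lost under 8 of the 9 alternatives and that of SLC7A5 under 4. Of 5 hepatocyte transcription factors and 5 genes of the arrestin-domain family tested none passed the trend.

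All 7 drug efflux transporters were tested, 5 were flat and 2 fell. ABCB1, the P-glycoprotein, had 840, 705 and 935 counts and a log2 ratio of 0.01 at 500 nM, and ABCC1 had 1035, 1058 and 1224 counts with 0.09. ABCC4 had 4210, 3531 and 4011 counts with -0.22 and fell, a call lost under 4 of the 9 alternatives, and ABCC3 is given above. In Hep3B the ABCB1 ratio at 500 nM was 2.18 and in Huh7 0.05, and the test of SNU449 against their mean gave -1.07 ± 0.37 SE with an edgeR adjusted p = 0.137.

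Genes of all lengths moved little. The median log2 ratio at 500 nM was -0.07 in the shortest sixth of genes by span, up to 9231 bases, and 0.02 in the longest sixth, from 112616 bases, and Spearman's rho across genes was 0.118 over 11192 genes. By GC content the direction turned between the doses, with rho of 0.152 at 250 nM and -0.101 at 500 nM, and medians in the sixth richest in GC of 0.04 and -0.06. These are descriptions across genes of the same libraries, which share composition and preparation. With the GC and length trends subtracted, 80 genes were called at 250 nM and 242 at 500 nM, and 5315 were flat. Genes that are not protein-coding took 1.45%, 1.53% and 1.60% of counts. Beyond the named genes, and chosen after their values were seen, the ATP synthase pseudogene ATP5A1P6 had 27, 79 and 123 counts and a log2 ratio of 1.96, the noncoding FER1L4 had 117, 62 and 33 counts with -1.91, and MIR6087 had 1258, 1359 and 478 counts with 0.23 at 250 nM and -1.54 at 500 nM.

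The size of the SNU449 response was set beside that of the other lines. At 500 nM 51% of genes were called in Hep3B and 59.1% in Huh7, against 2.47% in SNU449, and at 250 nM 43.1%, 40.9% and 0.724%. For Hep3B and Huh7 these shares are given under TMM scaling only, which lay far from total counts there. TMM took the Huh7 control from 14423043 to 21159863 and 500 nM from 5701981 to 3841413. In Hep3B it took the control from 20657610 to 28003305 and 500 nM from 11582266 to 9329860. The median absolute log2 ratio at 500 nM was 0.12 in SNU449, against 0.60 for Hep3B and 0.74 for Huh7. Over 9318 genes tested in all 3 lines, the ratios at 500 nM in SNU449 had a Spearman's rho of 0.007 with those in Hep3B and -0.02 with those in Huh7. At 250 nM these were 0.110 and 0.129, and Hep3B and Huh7 had 0.736 between them at 500 nM. Of 22 genes whose rise grew with dose in SNU449 and that were tested in all lines, 19 were higher in Hep3B and 18 in Huh7, against 48.7% and 45.7% of all genes. Of 104 whose fall grew with dose, 64 and 65 were higher there. Of these 104, 47 were called higher and 16 lower at 500 nM in Hep3B, and 52 and 24 in Huh7. Among all genes tested in Hep3B, 3149 of 11288 were called higher and 2613 lower at 500 nM. In Huh7, 3063 of 10466 were called higher and 3118 lower. These backgrounds cover all genes tested in each line, not the 9318 shared genes. SOD3, KRT15 and PPDPF were lower in SNU449 and had log2 ratios of 2.47, 2.89 and 1.96 in Hep3B. DKK1 was lower in SNU449 and also in Hep3B, with -1.87 at 500 nM.

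**Figure D4:**
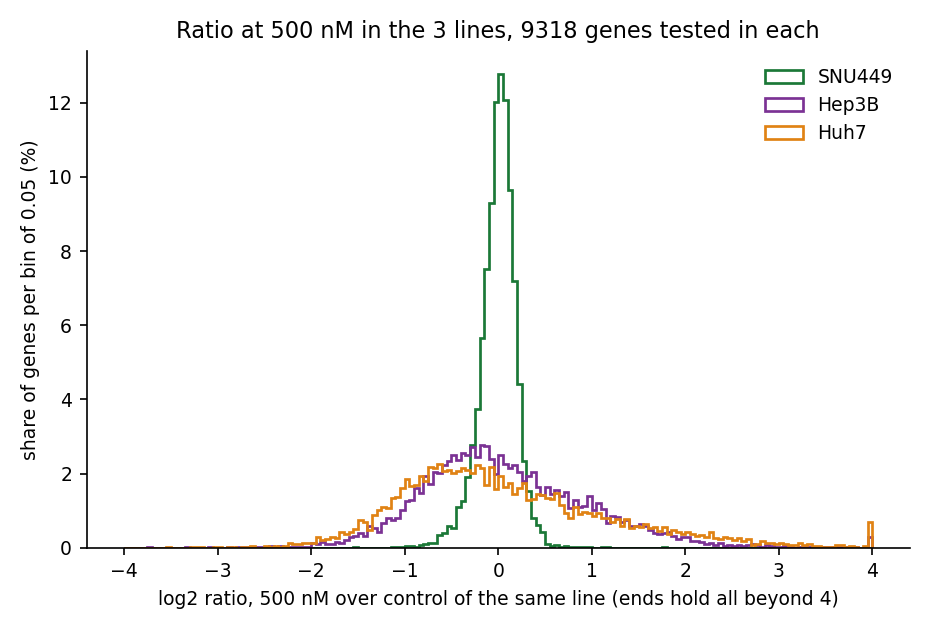
Distribution of the log2 ratio at 500 nM over the control of the same line for the 9318 genes tested in all 3 lines, as the share of genes in bins of 0.05. SNU449 forms a narrow peak at 0, with a median absolute ratio of 0.12 over its tested genes, while Hep3B and Huh7 spread over several log2 units.

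A fit over all 9 libraries, with a mean and a treated term for each line, tested whether these responses differed. In it the SNU449 response called 0 of 15479 genes (0%) by edgeR, 68 had an unadjusted p under 0.05, and DESeq2 also called 0, with 29 at an unadjusted p under 0.05. Its spread is pooled over the lines and holds the difference between the doses, so it is wider than that of the trend within SNU449. The SNU449 response minus the mean response of Hep3B and Huh7 called 433 genes (2.8%), 39 (0.252%) higher and 394 (2.55%) lower. Against Hep3B alone 53 genes (0.342%) were called, 4 (0.0258%) higher and 49 (0.317%) lower, and against Huh7 alone 245 (1.58%), 7 (0.0452%) higher and 238 (1.54%) lower. Of the histones, 5 of 17 tested in this fit were called. HIST2H2BE had a difference of -4.74 ± 0.70 SE (edgeR adjusted p = 0.00936), with 36, 2862 and 1425 counts in Hep3B and 187, 2715 and 2350 in Huh7. SLC7A11 had a difference of 0.60 ± 0.40 SE that did not pass (edgeR adjusted p = 0.437). Its unscaled counts were 762, 480 and 298 for Hep3B, against 568, 249 and 105 for Huh7. After TMM scaling, its Hep3B log2 ratios were 0.53 at 250 nM and 0.23 at 500 nM. The scaled Huh7 ratios were 0.10 at the lower dose and 0.03 at the higher. From control to 500 nM its unscaled counts fell by a larger factor than the library totals in both lines. The direction of its ratio in Hep3B and Huh7 thus depends on the scaling. GDF15 had a log2 ratio of 3.84 in Hep3B and of 1.78 in Huh7 at 500 nM and a difference of -1.83 ± 0.45 SE (edgeR adjusted p = 0.0540).

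**Figure D5:**
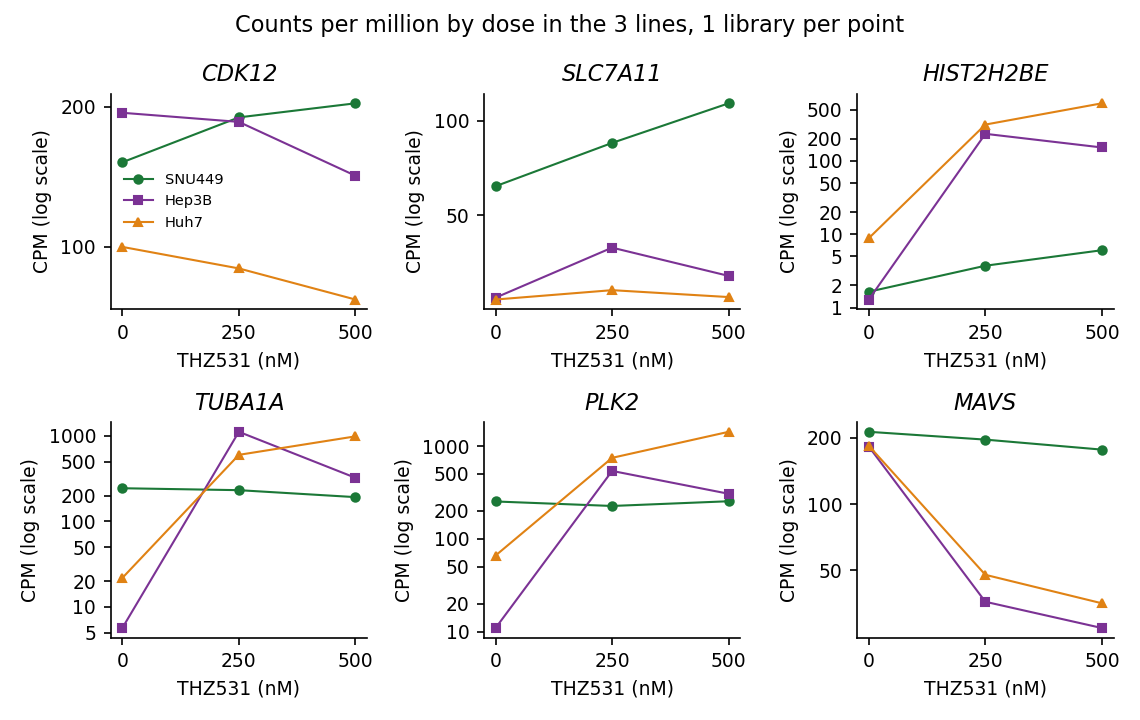
CPM on a log scale against THZ531 dose in SNU449 (green circles), Hep3B (purple squares) and Huh7 (orange triangles) for 6 genes, 1 library per point. CDK12 and SLC7A11 climb with dose in SNU449, HIST2H2BE climbs less there than in the other lines, and TUBA1A, PLK2 and MAVS stay near the SNU449 control.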

How the data were processed

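Stranded TruSeq libraries of polyadenylated RNA were sequenced, per the labels. Per the submitters' processing notes, HISAT2, HTSeq and GRCh38 (hg38) were used. Not given in the sources used here were versions, annotation release and strand setting, so reads of overlapping or antisense genes may not be told apart. The authors deposited whole-number read counts for each Ensembl gene, without normalization.

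Counts were scaled with TMM in edgeR 4.0.16 (R 4.3.3). Ratios used a prior count of 2 and 95% Clopper-Pearson intervals, which cover counting error only. The dose trend (3 SNU449 libraries, 1 residual degree of freedom) and the fit over 9 libraries (3 residual degrees of freedom) used edgeR's quasi-likelihood test, two-sided, with Benjamini-Hochberg adjustment over all genes tested at 0.05. No label gives separate cultures, so no p-value holds the spread between cultures. In the trend the spread is the departure from a straight line. In the fit over 9 libraries it is the difference between the 2 doses within each line. DESeq2 1.42.0, limma 3.58.1 and the settings in the closing section were alternatives. GC content and exonic length came from GENCODE v29 and were known for 99.6% of tested genes.

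Named genes were the 3 targets, the 10 largest rises and falls that grew with dose with a mean of at least 100 counts, the 5 largest each way at 250 nM that lay closer to control at 500 nM, the 5 smallest p each way in the trend, the 10 flat protein-coding genes with the highest counts, up to 4 per gene list, the drug efflux transporters, and the 5 smallest p each way of the difference between lines. Other members of a list are named where they complete its count. The members and the 42 lists (740 of 746 entries found) were chosen with earlier results of these data known. Some genes that the rule picks are not reported here.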

Additional observations from a re-analysis of the deposited data

Results flagged for a closer look

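The genes below were picked out because the SNU449 response differed from the mean response of Hep3B and Huh7 in the edgeR fit over 9 libraries, by the 5 smallest p in each direction. Line and hours of treatment cannot be told apart in them. All values are log2 differences with SE, counts are given for control, 250 and 500 nM, and each difference held at an adjusted p of at most 0.0242. Counts are not scaled, and the TMM-scaled library size in Hep3B was 28003305, 12203362 and 9329860. Huh7 counts are printed for AMH only, though Huh7 enters each difference, so the part of each line cannot be read from the printed counts.

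AMH, the anti-Müllerian hormone gene, differed by -7.50 ± 0.67 (adjusted p = 0.00189), with 152, 163 and 193 counts in SNU449, 33, 1575 and 653 in Hep3B and 4, 679 and 667 in Huh7. TUBA1A, an alpha-tubulin, differed by -6.15 ± 0.73, with 3417, 2990 and 2982 counts in SNU449 against 158, 13620 and 3017 in Hep3B. PLK2, a polo-like kinase, differed by -4.58 ± 0.54, with 3540, 2919 and 3948 counts in SNU449 and 306, 6585 and 2855 in Hep3B. RHBDL1, a rhomboid-like gene, differed by -4.15 ± 0.49, with 52, 42 and 46 counts in SNU449. TSC22D3, a glucocorticoid-induced leucine zipper gene, differed by -3.68 ± 0.43, with 80, 97 and 119 counts in SNU449 and 157, 2360 and 1714 in Hep3B. These 5 genes had higher counts after treatment than in control in Hep3B and Huh7, which was not so to the same size in SNU449.

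In the other direction, MPV17L differed by 3.59 ± 0.57, with 102, 93 and 114 counts in SNU449 and 508, 9 and 11 in Hep3B. FAM20C, a secretory pathway kinase, differed by 3.25 ± 0.63, with 253, 316 and 321 counts in SNU449 and 896, 165 and 84 in Hep3B. MMACHC, of vitamin B12 handling, differed by 2.44 ± 0.46, with 152, 131 and 162 counts in SNU449 and 462, 40 and 26 in Hep3B. SEMA6B, a semaphorin, differed by 2.39 ± 0.42, with 223, 235 and 215 counts in SNU449 and 1751, 123 and 83 in Hep3B. MAVS, the mitochondrial adaptor of RNA sensing, differed by 2.27 ± 0.45, with 2984, 2535 and 2746 counts in SNU449 and 5111, 439 and 255 in Hep3B. Each of these 5 genes was lower after treatment in Hep3B.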

How the results depend on the processing

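No paired analysis was possible because each line and dose has 1 library and the labels give no replicate numbers. The counts at 250 nM, at 500 nM and growing with dose (81, 276 and 254) moved with the minimum count and the fold. They were 205, 514 and 446 with a mean of at least 10 counts, 278, 605 and 523 with no filter beyond 1 count, and 7, 92 and 88 with at least 200. At a log2 threshold of 0.32 they were 414, 1147 and 994, and at 2-fold 3, 25 and 24. Flat genes were 611 in a 1.1-fold band and 9117 in a 1.5-fold band. Within SNU449, scaling changed these counts little, with 252 and 255 genes growing with dose under total counts and DESeq2 size factors.

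The trend called 591 genes with total-count scaling, 211 with both doses as treated and 80 with DESeq2, against 971. Of 94 named genes past the trend, 23 (12 higher and 11 lower) passed under every alternative run for them, 68 were lost with DESeq2, 52 with both doses as treated and 22 with total counts. The cause of these losses was not tested. The difference from the mean of the other lines (433) was 177 with total counts, 1187 with no filter and 1017 with DESeq2. Against Hep3B (53) it was 656 with no filter, 193 without the SNU449 500 nM library, 214 without the 250 nM library and 418 with DESeq2. Against Huh7 (245) it was 74, 915 and 780 with total counts, no filter and DESeq2. Where a library was left out, the lone treated library was assumed to vary like the other lines. Depth limits the smallest shift seen. Genes of few counts carry most calls past the fold, whereas the trend called 764 genes with a mean of at least 200 counts.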
